A study of Mus musculus with 12 samples.

Results

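The comparison described here is IL-22 added to IL-1b: 3 mouse colonoid libraries that received both cytokines against 3 that received IL-1b alone, taken by their group labels from the 12 libraries of the series. Colonoids are hollow epithelial structures grown from colonic crypts in a basement membrane gel. These came from C57BL/6 mice with no genetic change named, and all were cultured with EGF and L-WRN conditioned medium, a medium from cells that secrete Wnt3a, R-spondin and noggin. The IL-1b group was given mouse IL-1b, a recombinant protein, at 100 ng/mL and the IL-1b+IL-22 group the same IL-1b with recombinant mouse IL-22 at 1 ng/mL, for 12 h. The other 6 libraries, 3 unstimulated and 3 with IL-22 at 1 ng/mL alone for 12 h, give the effect of IL-22 without IL-1b for comparison. Animal age, sex and the number of animals are not given in the labels, and pooling is not stated. The labels do not tie replicates to separate animals or cultures, so the p-values measure the spread between these libraries, which may be technical.

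IL-22, made by lymphoid cells, acts on a receptor of epithelial cells that is formed by IL22RA1 and IL10RB. It signals through JAK kinases and STAT3, and in the colon it is known for inducing antimicrobial and acute-phase proteins, fucosylation of surface glycans and epithelial repair. IL-1b is an inflammatory cytokine of myeloid cells that acts through IL-1R1, MyD88 and NF-kB. Both cytokines rise together in infected or inflamed gut, so the comparison asks what IL-22 does to epithelium that also receives IL-1b.

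Polyadenylated RNA was counted per gene. Library totals lay between 4703902 and 5804033 counts, and 13987 genes had enough counts to be tested. Levels below are CPM, a gene's counts divided by the scaled total of its library in the usual per-megacount unit, given for replicates 1, 2 and 3 in that order, and n = 3 per group throughout. Differences are log2 fold changes of both cytokines over IL-1b with an approximate standard error, taken from the size of the change and the F statistic. A gene is said to rise or fall where edgeR's quasi-likelihood test gave an adjusted p (Benjamini-Hochberg, over all genes tested) under 0.05. All 12 epithelial identity markers, Epcam, Cdh1 and keratins among them, were counted in every library, with a summed level of 3059 to 3332 CPM with IL-1b and 3552 to 3700 CPM with both cytokines. A single IL-1b library stood apart. The summed level of 13 T cell and innate lymphoid markers was 71.7 CPM in IL-1b replicate 1 and 9.41 to 10.5 CPM in the other IL-1b libraries. It was 1.41 to 7.45 CPM with both cytokines, 2.64 to 7.53 CPM with IL-22 alone and 1.78 to 2.55 CPM unstimulated. All comparisons with IL-1b use IL-1b replicate 1. Where leaving it out ended a call or moved a value by more than 1.5 times, this is stated beside the result, and the whole comparison without it stands near the end.

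Adding IL-22 to IL-1b changed 3682 of 13987 genes (26.3%), 1860 higher (13.3%) and 1822 lower (13%). Of these, 289 rose and 461 fell by at least 2-fold. Acute-phase, antimicrobial, STAT3 feedback, protein-folding, tRNA-charging and cholesterol synthesis genes rose. The gluconeogenic gene Pck1 and genes of xenobiotic metabolism, goblet cells, ion transport and lipid absorption were among those that fell. With total counts as the only scaling the split was 1391 higher to 2387 lower, so 36.8% rather than 50.5% were higher, because that scaling moves the median of all genes by -0.06 on the log2 scale. Leaving out 1 library at a time gave 2567 to 3843 calls. The groups of 3 did not overlap for 3153 of the 13987 genes with both cytokines higher, and for 3057 with both lower. Groups that do not overlap, named for single genes below, were therefore common and describe spread only.

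The largest rises were in secreted defence proteins and in STAT3 feedback. Genes with the largest rises and falls were picked only where the groups of 3 did not overlap, so their separation follows from the choice. Lrg1, an acute-phase glycoprotein gene (mm10 chr17:56119678-56122001), had 0, 1 and 0 counts with IL-1b and 384, 311 and 307 with both. Its ratio of summed counts was 1142 (95% counting interval 204.5 to 45150), against 1 count in all with IL-1b, and without IL-1b replicate 2 it was at least 260.0-fold higher, taking a group total of 3 counts as the floor. Without IL-1b replicate 3 the ratio was 733. The 3 libraries with both cytokines were alike and far above every IL-1b library. Socs3, which encodes a feedback inhibitor of STAT3 (mm10 chr11:117966079-117970047), had 11.4, 10.3 and 11.1 CPM with IL-1b and 205, 220.3 and 217 CPM with both. Socs3 rose by 4.28 ± 0.16 (edgeR quasi-likelihood test, adjusted p = 1.19e-09), with no overlap between the groups and little spread within them.

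Reg3b and Reg3g, neighbouring genes for antibacterial C-type lectins, rose together. Reg3b (mm10 chr6:78370657-78373466) had 0.184, 0.941 and 0.166 CPM with IL-1b and 53.5, 54.3 and 48.3 CPM with both, a log2 fold change of 6.88 ± 1.05 (edgeR adjusted p = 0.000331). Reg3g (mm10 chr6:78466269-78468872) had 0, 0.376 and 0.333 CPM with IL-1b and 46.4, 23.1 and 30.5 CPM with both, a log2 fold change of 6.99 ± 0.97 (edgeR adjusted p = 0.000165). Every library with both cytokines was above every IL-1b library for each gene, as the choice of genes required. Reg3b stood at 8.03 without IL-1b replicate 2. The pair are close paralogs, so reads could be split between them. Their level without any cytokine was uneven: unstimulated replicate 1 held 19.4 CPM of Reg3b and 7.48 CPM of Reg3g, while the other unstimulated libraries held at most 0.182 and 0 CPM.

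**Figure D1:**
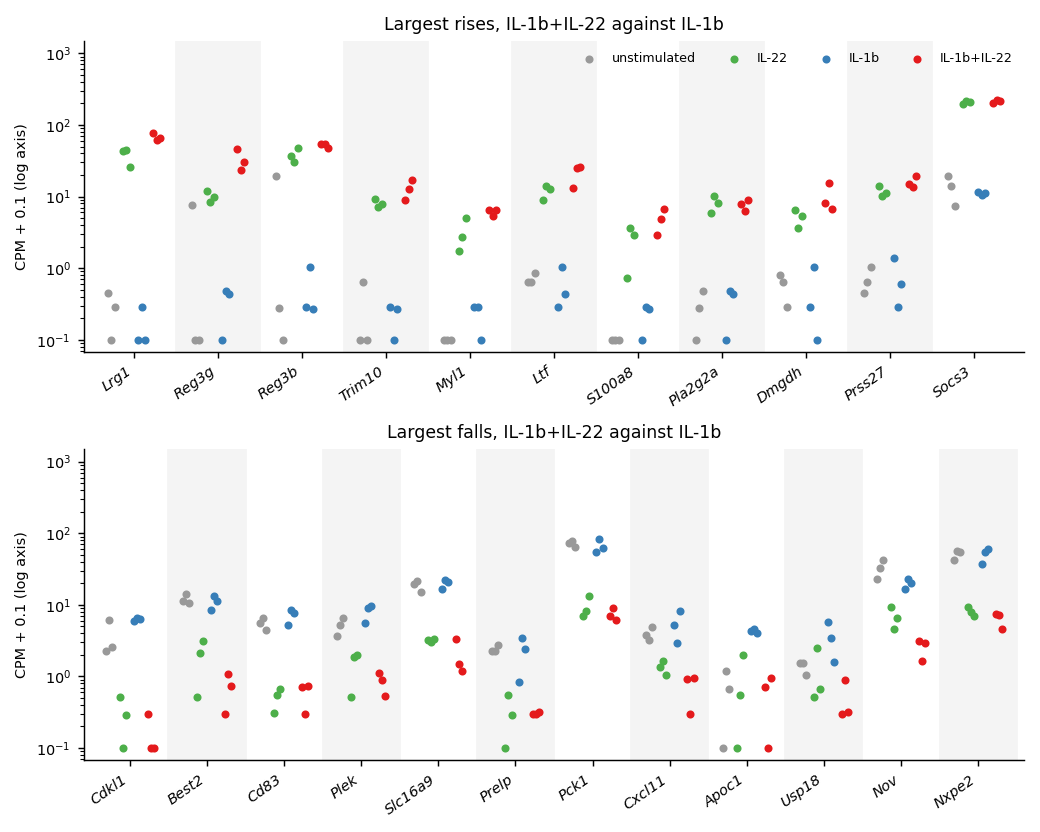
CPM plus 0.1 on a log axis for 11 of the genes with the largest rise (top) and the 12 with the largest fall (bottom) when IL-22 was added to IL-1b, with 1 point per library in the 4 groups. The genes were picked so that the 3 libraries with both cytokines lie on 1 side of the 3 IL-1b libraries. Reg3b and Reg3g show a single unstimulated library well above the others.

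Promoter sequences of 2 of these genes are shown because they hold the palindrome TTCNNNGAA, the core of the site that STAT dimers bind, where N is any base. They run from 250 bases before to 50 bases after the start of the RefSeq transcript (GRCm38.p6, a patch release of the assembly called mm10), 5′ to 3′ on the gene's strand, with the motif in capitals. The Socs3 promoter is chr11:117969317-117969616 on the minus strand, with its match starting at -154. The Reg3b promoter is chr6:78370635-78370934 on the plus strand, with its match starting at -129. Both positions count from the RefSeq start. The gene spans given above come from GENCODE M21 and begin farther upstream. They hold the whole Socs3 window and the Reg3b match, so neither motif lies upstream of its gene span.
Socs3: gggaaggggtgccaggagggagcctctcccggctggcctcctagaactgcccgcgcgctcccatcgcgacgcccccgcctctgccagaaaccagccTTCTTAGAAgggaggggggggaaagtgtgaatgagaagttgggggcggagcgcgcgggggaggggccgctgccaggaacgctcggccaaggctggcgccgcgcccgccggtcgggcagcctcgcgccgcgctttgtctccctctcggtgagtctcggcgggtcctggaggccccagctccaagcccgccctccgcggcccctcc
Reg3b: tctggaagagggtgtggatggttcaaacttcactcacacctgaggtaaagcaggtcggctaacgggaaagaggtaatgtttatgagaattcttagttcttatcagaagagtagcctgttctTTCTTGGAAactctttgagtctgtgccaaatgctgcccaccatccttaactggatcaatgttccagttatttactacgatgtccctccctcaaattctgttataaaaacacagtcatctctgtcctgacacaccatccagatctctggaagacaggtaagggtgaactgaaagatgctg
The motif was common among promoters in general. It stood in 7.82% of the 1829 promoters of genes that rose and in 8.85% of the 260 of genes that rose at least 2-fold, against 6.97% of the 13209 promoters of all genes tested and 6.63% of the 1795 of genes that fell, and in 8.3% of the 32851 promoters in the table. A match describes letters in this window only, and the promoters of Lrg1, Reg3g, Trim10, Ltf and Prss27 held none. A match to the ER stress element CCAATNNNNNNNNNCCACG, read by the factors ATF6 and NF-Y, stood in 8 of the 1829 promoters of genes that rose (0.437%) and in none of the 1795 of genes that fell, against 20 of 13209 (0.151%). For the NF-kB motif GGGANTTTCC the shares were 0.765% among genes that rose, 0.39% among those that fell and 0.485% among all tested. All 4 motifs used here were searched on both strands, and these shares carry no test.

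Other genes with the largest rises encode proteins of varied roles. Ltf, the gene of the iron-binding protein lactoferrin, had 0.184, 0.941 and 0.333 CPM with IL-1b and 12.9, 24.9 and 25.96 CPM with both, a log2 fold change of 5.41 ± 0.42 (edgeR adjusted p = 1.02e-06), and stood at 6.21 without IL-1b replicate 2. Prss27, a serine protease gene, had 1.29, 0.188 and 0.499 CPM with IL-1b and 14.7, 13.5 and 19.3 CPM with both (4.54 ± 0.36), and stood at 5.39 without IL-1b replicate 1. Both were picked as genes higher in all 3 libraries with both cytokines. Trim10, a tripartite motif gene, went from 2 summed counts to 186 (ratio 106, 95% counting interval 28.9 to 881.7). Myl1, a myosin light chain gene, went from 2 to 89 (50.7, 13.6 to 425.3) and S100a8, which encodes a calprotectin subunit, from 2 to 69 (39.3, 10.5 to 331.2). These 3 ratios rest on 2 counts. Trim10 had 1, 0 and 1 counts with IL-1b and 44, 64 and 78 with both, Myl1 1, 1 and 0 against 32, 27 and 30 and S100a8 0, 1 and 1 against 14, 24 and 31. Leaving out IL-1b replicate 3 gave Myl1 a ratio of 32.5, and leaving out IL-1b replicate 1 gave S100a8 a ratio of 26.6.

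Pla2g2a and Dmgdh were also among the largest rises. Pla2g2a, of the secreted phospholipase family, had 0, 0.376 and 0.333 CPM with IL-1b and 7.87, 6.27 and 8.796 CPM with both (4.87 ± 0.50; edgeR adjusted p = 1.24e-05), though C57BL/6 mice are known to carry a disrupted copy of this gene. Dmgdh, a mitochondrial dimethylglycine dehydrogenase gene, had 0.184, 0.941 and 0 CPM with IL-1b and 8.07, 15.5 and 6.65 CPM with both (4.73 ± 0.59), and its value ranged from 4.12 without IL-1b replicate 3 to 6.50 without IL-1b replicate 2. Dmgdh shares exon bases with another gene model, so its counts are uncertain.

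The largest falls were in ion transport, metabolic and signalling genes. Pck1, the gluconeogenic enzyme PEPCK (mm10 chr2:173153048-173159273), had 54.8, 84.3 and 62.2 CPM with IL-1b and 6.86, 9.02 and 6.01 CPM with both, a log2 fold change of -3.19 ± 0.22 (edgeR adjusted p = 3.66e-07). Best2, a bestrophin anion channel of goblet cells (mm10 chr8:85007202-85014531), had 8.45, 12.98 and 11.1 CPM with IL-1b and 0.202, 0.9801 and 0.644 CPM with both, a change of -4.10 ± 0.47 (edgeR adjusted p = 3.25e-05). For both genes the lowest IL-1b library was several times above the highest library with both cytokines. Nxpe2 had 36.9, 55.1 and 60.04 CPM with IL-1b and 7.26, 7.06 and 4.51 CPM with both (-3.0 ± 0.22) and Nov, which encodes the matricellular protein CCN3, had 16.5, 23.1 and 19.8 CPM with IL-1b and 3.03, 1.57 and 2.79 CPM with both (-3.0 ± 0.33). Cd83, an immunoglobulin-family surface protein gene, had 5.15, 8.28 and 7.65 CPM with IL-1b and 0.605, 0.196 and 0.644 CPM with both (-3.82 ± 0.39). Each of these separated the groups fully, as the choice of genes required.

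The remaining large falls have limits in their counts. Cdkl1, a cyclin-dependent kinase-like gene, had 32, 34 and 37 counts with IL-1b and 1, 0 and 0 with both, a ratio of 0.0111 (95% counting interval 0.000278 to 0.0630), and it was at least 20.0-fold lower without IL-1b+IL-22 replicate 1 and 0.0169 without replicate 2 of that group. Prelp, a matrix proteoglycan gene, had 4, 18 and 14 counts with IL-1b and 1, 1 and 1 with both, a ratio of 0.0950 (0.0187 to 0.301). Slc16a9, a monocarboxylate transporter gene, had 16.4, 22.01 and 20.8 CPM with IL-1b and 3.23, 1.37 and 1.07 CPM with both (-3.36 ± 0.28), and stood at -3.99 without IL-1b+IL-22 replicate 1. All 3 genes share exon bases with another gene model and the counting strand is not given in the sources used here, so reads of the partner may be included. Apoc1, an apolipoprotein gene, had 4.23, 4.51 and 3.99 CPM with IL-1b and 0.605, 0 and 0.858 CPM with both (-3.09 ± 0.75; edgeR adjusted p = 0.00752). Its change ran from -2.50 without IL-1b+IL-22 replicate 2 to -3.73 without replicate 3, and with IL-22 alone the same gene stood at 0.54 ± 0.97 (adjusted p = 0.738). The difference between these effects did not pass edgeR's test, which called 0 of 13987 genes and is given near the end.

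**Figure D2:**
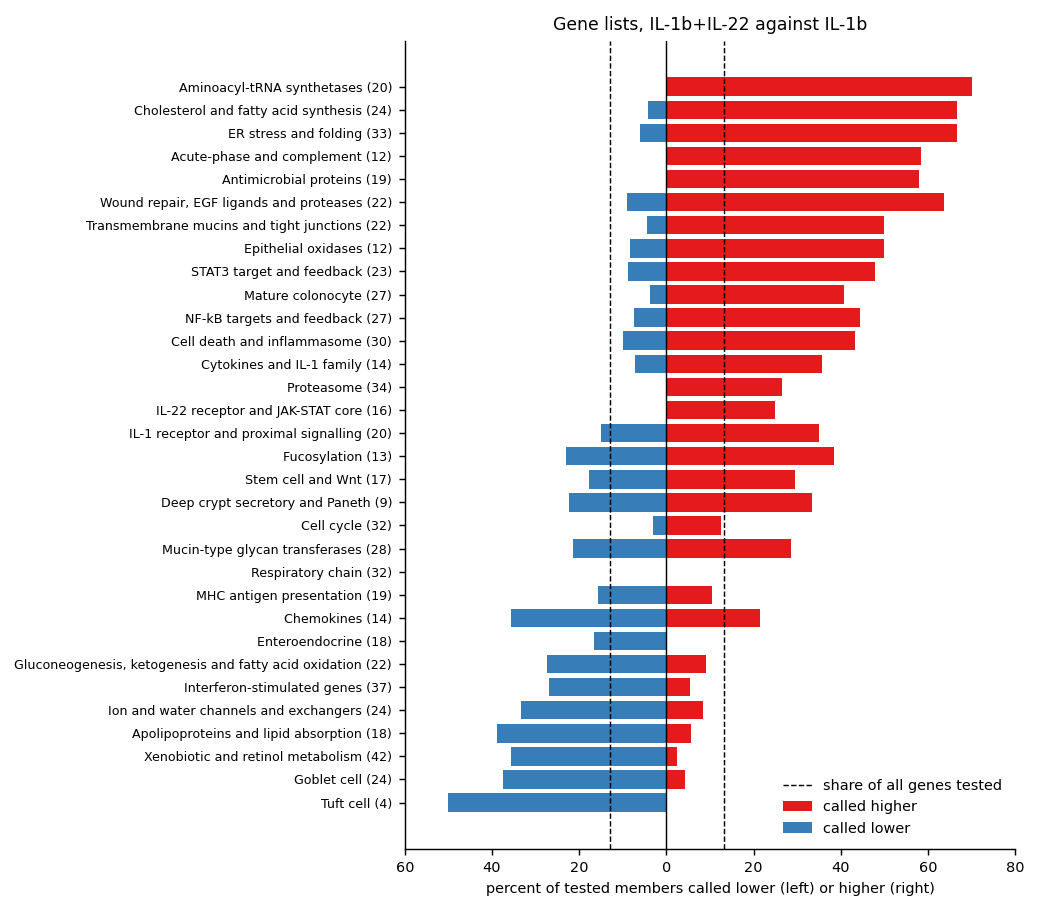
Percent of tested members of 32 gene lists that rose (right) or fell (left) when IL-22 was added to IL-1b, with the number tested in parentheses. Dashed lines mark the shares over all genes tested, 13.3% higher and 13% lower. The tRNA synthetase, cholesterol synthesis and ER folding lists lie farthest to the right, and no member of the respiratory chain list was called.

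The IL-22 receptor genes themselves did not pass the test. Il22ra1 had 153, 149 and 138 CPM with IL-1b and 129.7, 149 and 135 CPM with both (-0.08 ± 0.07; edgeR adjusted p = 0.418) and Il10rb stood at -0.01 ± 0.06 (0.883). Of 16 receptor, JAK and STAT genes tested, 4 rose and none fell, against 13.3% and 13% of all genes. List counts of 3 or fewer, here and below, moved by at most 2 when 1 of the 6 libraries was left out. The 4 were Jak3 (1.33 ± 0.12), Stat3 (0.59 ± 0.07), Stat6 (0.36 ± 0.06) and the phosphatase gene Ptpn2 (0.31 ± 0.06), and the list's median was 0.07 against 0.00 for all genes. Stat3, the transcription factor that IL-22 activates, had 161, 175 and 165 CPM with IL-1b and 242, 276 and 234 CPM with both (edgeR adjusted p = 2.47e-05). Jak3, Stat3 and Stat6 share exon bases with a neighbour (Insl3, Stat5a and Nab2).

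Targets and feedback genes of STAT3 moved more. Of 23 tested, 11 rose and 2 fell, with a median of 0.23. Osmr, a receptor subunit for oncostatin M, had 0.551, 0.941 and 1.16 CPM with IL-1b and 18.97, 9.21 and 16.7 CPM with both (4.03 ± 0.51; edgeR adjusted p = 6.86e-05). Pim3, a kinase gene, had 44.5, 43.8 and 44.6 CPM with IL-1b and 109, 106 and 112 CPM with both (1.30 ± 0.06; adjusted p = 1.08e-08), and Il4ra, the interleukin 4 receptor chain, had 65.8, 63.96 and 63.7 CPM with IL-1b and 140.0, 151 and 160.3 CPM with both (1.22 ± 0.07; adjusted p = 5.60e-08). The groups were apart for all 3, and Pim3 varied by only a few CPM within each group. The 2 members that fell were Cish, a SOCS-family gene (-0.60 ± 0.12), and Fgl1 (-1.12 ± 0.26).

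Antimicrobial genes rose with none falling: 11 of 19 tested were higher and the median was 0.32. Lcn2, the siderophore-binding lipocalin 2 (mm10 chr2:32384633-32388252), had 2.94, 4.14 and 5.49 CPM with IL-1b and 47.2, 31.4 and 44.6 CPM with both, a log2 fold change of 3.27 ± 0.25 (edgeR adjusted p = 1.02e-06). With IL-22 alone Lcn2 had 1.45, 0.886 and 0.943 CPM, below the IL-1b group. Retnlb, a resistin-like goblet cell protein with antibacterial activity, had 2.02, 0.188 and 1.16 CPM with IL-1b and 10.5, 12.3 and 11.4 CPM with both (3.31 ± 0.58) and stood at 3.97 without IL-1b replicate 1. S100a9, the partner of S100a8, had 0.184, 1.69 and 0.499 CPM with IL-1b and 8.88, 7.45 and 16.7 CPM with both (3.78 ± 0.52; edgeR adjusted p = 0.000153) and stood at 4.88 without IL-1b replicate 2.

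Acute-phase and complement genes followed, with 7 of 12 tested higher, none lower and a median of 0.56. Lbp, the lipopolysaccharide-binding protein (mm10 chr2:158306493-158332852), had 5.15, 9.97 and 6.65 CPM with IL-1b and 45.8, 43.5 and 40.3 CPM with both (2.58 ± 0.17; edgeR adjusted p = 2.44e-07). The serum amyloid genes Saa2 and Saa3 had 6.62, 8.09 and 7.48 CPM with IL-1b and 24.01, 24.7 and 22.3 CPM with both, and 29.96, 26.7 and 25.9 CPM with IL-1b and 79.5, 72.3 and 77.7 CPM with both, changes of 1.68 ± 0.16 and 1.47 ± 0.29. C3, the central complement component, rose by 0.99 ± 0.17 (edgeR adjusted p = 0.000771). Saa2 has a near-identical copy, Saa1, so their reads may be split.

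Epithelial oxidases and related genes, a list that also holds their partners and antioxidant enzymes, rose in 6 of 12 cases with 1 lower, and their median was 0.41. The 6 were Duox1, Duox2, Duoxa2, Nos2, the GTPase gene Rac1 (0.28 ± 0.05) and Gpx2, a glutathione peroxidase gene whose product removes peroxide (0.53 ± 0.08). Duox2 (mm10 chr2:122279247-122298449) had 185, 217 and 207 CPM with IL-1b and 454, 574 and 546 CPM with both (1.37 ± 0.12; edgeR adjusted p = 4.67e-06), and Duoxa2, whose product matures the enzyme, rose by 1.28 ± 0.13. Duox1, the other dual oxidase, had 2.76, 3.76 and 3.16 CPM with IL-1b and 8.47, 12.7 and 9.87 CPM with both (1.68 ± 0.24). Nos2, the inducible nitric oxide synthase, had 108, 121 and 131 CPM with IL-1b and 208, 249.5 and 247 CPM with both (0.97 ± 0.18; adjusted p = 0.00127). All libraries with both cytokines were above all IL-1b libraries for these genes, and Duoxa2 shares exon bases with Duoxa1.

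Chemokine genes split by class. Of 14 tested, 3 rose and 5 fell, with a median of -0.20. The CXCR2 ligands, which attract neutrophils, rose: Cxcl5 had 22.6, 6.02 and 15.1 CPM with IL-1b and 75.7, 64.9 and 117 CPM with both (2.55 ± 0.32; edgeR adjusted p = 7.69e-05) and Cxcl2 rose by 2.03 ± 0.48, or 3.03 without IL-1b replicate 1. Cxcl1 had 8.82, 6.58 and 10.3 CPM with IL-1b and 18.6, 12.5 and 19.7 CPM with both (0.97 ± 0.25; adjusted p = 0.0117), a call lost without IL-1b replicate 2 (adjusted p = 0.0535) or IL-1b+IL-22 replicate 3 (0.0515). The CXCR3 ligands, which attract T cells, fell: Cxcl10 had 15.1, 17.7 and 15.1 CPM with IL-1b and 3.23, 3.53 and 3.43 CPM with both (-2.22 ± 0.32; adjusted p = 0.000194), Cxcl9 3.12, 3.01 and 4.49 against 1.01, 0.392 and 0.429 CPM (-2.50 ± 0.47) and Cxcl11 5.15, 2.82 and 8.15 against 0.807, 0.196 and 0.858 CPM (-3.10 ± 0.49). The groups did not overlap for any of these 3. Cxcl10 and Cxcl11 share exon bases with Art3 and Gm2673. Ccl20, the ligand of CCR6, had 48.9, 44.6 and 51.9 CPM with IL-1b and 21.8, 17.1 and 28.3 CPM with both (-1.12 ± 0.18; adjusted p = 0.00053), and the mucosal chemokine gene Ccl28 fell by 0.61.

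NF-kB targets and inhibitors rose in 12 of 27 cases with 2 lower, and the median was 0.17. The 2 lower genes were Tnip1, of the same family as the inhibitor Tnip2 below (-0.362 ± 0.089), and the kinase gene Ikbke (-0.318 ± 0.075). Rel, an NF-kB subunit gene, had 11.9, 11.3 and 8.32 CPM with IL-1b and 18.97, 24.3 and 21.9 CPM with both (1.05 ± 0.17; edgeR adjusted p = 0.000487), and Tnip2, an inhibitor of the pathway, rose by 0.75 ± 0.12. Icam1, an adhesion molecule gene at a few CPM, stood at 1.08 ± 0.33, with its call lost without IL-1b replicate 2 or 3 or IL-1b+IL-22 replicate 2 or 3 (adjusted p = 0.0693 to 0.0964). Among 20 genes of the IL-1 receptor and its proximal signalling 7 rose and 3 fell, with a median of 0.09. The ubiquitin ligase gene Traf6 (0.57 ± 0.07) and the kinase gene Ikbkb (0.47 ± 0.06) rose. The 3 lower genes were Il1rap, Tab1 and Ikbkg. Il1rap lost its call without any 1 of the 6 libraries (adjusted p = 0.0517 to 0.113), and Tab1 lost it without IL-1b replicate 3 or IL-1b+IL-22 replicate 1. Il1r1, the IL-1b receptor itself, had 8.27, 9.41 and 9.31 CPM with IL-1b and 6.46, 4.12 and 7.29 CPM with both (-0.60 ± 0.34) and did not pass the test (edgeR adjusted p = 0.217).

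Of 14 cytokine genes tested, 5 rose and 1 fell. Tnfsf9, a TNF-family costimulatory ligand gene, had 7.53, 6.77 and 6.82 CPM with IL-1b and 14.7, 22.1 and 20.2 CPM with both (1.43 ± 0.18; edgeR adjusted p = 8.90e-05), and Tgfa, an EGF receptor ligand, rose by 0.38 ± 0.08. Tnfsf13, which encodes the B cell factor APRIL, fell by 0.56 ± 0.09. Tnf stood at 0.47 ± 0.13 and lost its call without any 1 of the 3 IL-1b libraries or IL-1b+IL-22 replicate 3 (adjusted p = 0.0547 to 0.0983). Without IL-1b replicate 2 or 3 or IL-1b+IL-22 replicate 3 the number of higher cytokine genes was 2.

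Interferon-stimulated genes fell in part with IL-22, and the number that did so depended on which libraries were compared. Of 37 tested, 10 fell and 2 rose, and the median was -0.41. Igtp, an interferon-induced GTPase (mm10 chr11:58199556-58207591), had 22.4, 15.99 and 12.6 CPM with IL-1b and 3.23, 5.49 and 3.86 CPM with both (-2.01 ± 0.28; edgeR adjusted p = 0.000173). Ddx60, an RNA helicase gene, had 57.5, 33.1 and 18.3 CPM with IL-1b and 10.1, 12.3 and 12.9 CPM with both (-1.62 ± 0.38; adjusted p = 0.00609). Usp18, which removes ISG15 from proteins, had 5.697, 3.39 and 1.497 CPM with IL-1b and 0.202, 0.784 and 0.215 CPM with both (-3.03 ± 0.71; adjusted p = 0.00639) and stood at -3.92 without IL-1b+IL-22 replicate 2. In all 3 genes IL-1b replicate 1 was the highest of the IL-1b libraries, and the groups still did not overlap. The 2 members that rose were Zbp1, a sensor of Z-form nucleic acid (1.47 ± 0.30), and Irf8 (0.55 ± 0.10).

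IL-1b replicate 1 was also the library with the most leukocyte transcripts. Without it 4 of the 10 fell, Igtp (-1.76), Usp18 (-2.50), Ddx60 (-1.12) and the helicase gene Dhx58 (-0.63), with edgeR adjusted p from 0.000812 to 0.0309. The median was then -0.21. Without IL-1b replicate 1 the calls of Ifit3, Ddx58, Rtp4, Xaf1, Gbp6 and Irgm1 were lost, with adjusted p from 0.0581 to 0.166. The number of list members that fell was 9 and 14 without IL-1b replicates 2 and 3. It was 7, 7 and 6 without IL-1b+IL-22 replicates 1, 2 and 3. The 10 genes summed to 271.4, 217.1 and 181.3 CPM with IL-1b and to 129.5, 143.5 and 126.4 CPM with both. In unstimulated libraries they summed to 156.8, 145.3 and 192.3 CPM and with IL-22 alone to 136.9, 144.2 and 128.6 CPM. The 10 were chosen by their fall, so these sums are a description. The whole list summed to 1451 to 1775 CPM with IL-1b, 1473 to 1650 CPM with both and 1314 to 1578 CPM unstimulated, which overlap. Apart from the results without IL-1b replicate 1 given here, the part of leukocyte RNA in these falls was not tested. In bulk RNA, fewer cells of a type and less RNA per cell cannot be told apart.

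**Figure D3:**
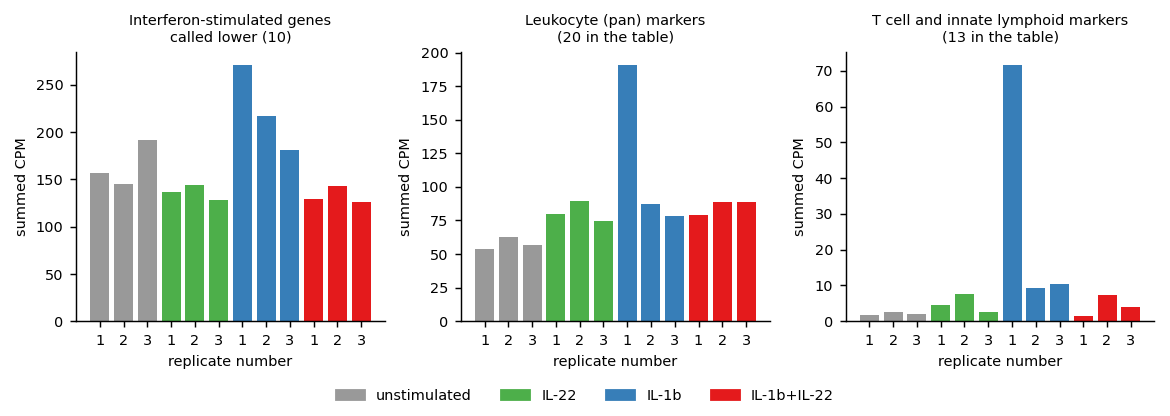
Summed CPM per library of the 10 interferon-stimulated genes that fell (left), of 20 pan-leukocyte markers (middle) and of 13 T cell and innate lymphoid markers (right), with bars from 0 coloured by group. IL-1b replicate 1 is the tallest bar in every panel, at 271.4, 190.9 and 71.7 CPM.

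The promoters of Igtp and Ddx60, and of the interferon-inducible chemokine gene Cxcl10, are shown because they hold the core GAAANNGAAA of the interferon-stimulated response element, again with matches in capitals and in the same 300-base window of GRCm38.p6. They are Igtp (chr11:58199306-58199605, plus strand, with TTCTAGGAA at -45 and GAAACTGAAA at -34), Ddx60 (chr8:61927837-61928136, plus strand, GAAACCGAAA at -53 and -19) and Cxcl10 (chr5:92348840-92349139, minus strand, GAAAGTGAAA at -213).
Igtp: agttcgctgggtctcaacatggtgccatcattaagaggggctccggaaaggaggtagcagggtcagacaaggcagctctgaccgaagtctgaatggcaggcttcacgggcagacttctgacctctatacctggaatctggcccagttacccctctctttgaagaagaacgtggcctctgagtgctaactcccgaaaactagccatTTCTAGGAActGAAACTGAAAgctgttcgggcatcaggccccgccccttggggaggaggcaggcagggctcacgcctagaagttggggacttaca
Ddx60: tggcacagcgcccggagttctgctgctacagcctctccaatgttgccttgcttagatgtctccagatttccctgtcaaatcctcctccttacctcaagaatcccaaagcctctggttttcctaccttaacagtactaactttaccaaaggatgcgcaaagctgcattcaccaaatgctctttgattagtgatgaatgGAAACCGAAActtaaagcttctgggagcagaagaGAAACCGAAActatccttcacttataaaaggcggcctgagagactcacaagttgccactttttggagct
Cxcl10: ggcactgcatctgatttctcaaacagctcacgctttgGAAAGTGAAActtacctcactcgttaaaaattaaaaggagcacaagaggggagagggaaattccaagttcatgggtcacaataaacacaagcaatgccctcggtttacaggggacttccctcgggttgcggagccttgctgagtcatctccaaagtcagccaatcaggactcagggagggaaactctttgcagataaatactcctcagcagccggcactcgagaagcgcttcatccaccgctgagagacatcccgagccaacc
The core stood in 2.67% of promoters of genes that fell, 2.46% of those that rose and 2.97% of all tested, so these shares were close to each other. The matches shown do not overlap one another. Igtp shares exon bases with Irgm2.

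Antigen presentation genes went both ways. Of 19 tested, 2 rose and 3 fell, close to the background, with a median of 0.00. Tap1, the peptide transporter, had 29.4, 26.7 and 27.3 CPM with IL-1b and 15.7, 18.4 and 12.01 CPM with both (-0.85 ± 0.17; edgeR adjusted p = 0.00259), and the immunoproteasome gene Psmb9 fell by 0.76 ± 0.14. The pair lie head to head and share exon bases. H2-D1, a class I gene, stood at 0.21 ± 0.06, with its call lost without IL-1b replicate 3 (adjusted p = 0.0896) or IL-1b+IL-22 replicate 3 (0.0557).

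Genes of protein folding in the endoplasmic reticulum rose together: 22 of 33 tested were higher and 2 lower, with a median of 0.30. Chac1, a glutathione-degrading target of the ATF4 pathway, had 31.2, 32.7 and 36.4 CPM with IL-1b and 72.4, 78.8 and 69.7 CPM with both (1.14 ± 0.10; edgeR adjusted p = 2.83e-06). Xbp1, a transcription factor of the unfolded protein response, rose by 0.61 ± 0.05 (adjusted p = 4.16e-06), the chaperone gene Hyou1 by 0.56 ± 0.07 and the chaperone BiP gene Hspa5 by 0.33 ± 0.06. These are changes of less than 2-fold except for Chac1, and all 4 kept their calls without any 1 of the 6 libraries compared. The members that fell were Ern2, the goblet cell form of the stress sensor IRE1 (-0.82 ± 0.13), and Ero1lb (-0.75 ± 0.21). Ero1lb lost its call without IL-1b replicate 2 (0.072) or IL-1b+IL-22 replicate 2 (adjusted p = 0.0722).

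Aminoacyl-tRNA synthetase genes, which charge tRNAs and are known ATF4 targets in part, rose in 14 of 20 cases with none lower and a median of 0.25. Cars had 95.4, 96.5 and 102 CPM with IL-1b and 129.9, 144 and 135 CPM with both (0.47 ± 0.06; edgeR adjusted p = 4.15e-05) and Rars had 182, 166 and 172 CPM with IL-1b and 229, 212 and 237 CPM with both (0.38 ± 0.06; adjusted p = 0.000427). The spread within groups was small for both. Without IL-1b+IL-22 replicate 3 the number of higher members was 9. Proteasome genes rose in 9 of 34 cases with a median of 0.15, led by Psmd3 (0.29 ± 0.05), and that count was 4 or 5 without IL-1b replicate 1 or 3 or IL-1b+IL-22 replicate 1 or 3, 14 without IL-1b+IL-22 replicate 2, and 4 with total counts as the only scaling. Of 32 respiratory chain genes none was called by edgeR, and their median was 0.08.

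Cholesterol and fatty acid synthesis genes, targets of SREBP factors, rose in 16 of 24 cases with 1 lower, and the median was 0.33. Fdps, farnesyl diphosphate synthase, had 119, 121 and 123 CPM with IL-1b and 159, 165 and 169.9 CPM with both (0.45 ± 0.05; edgeR adjusted p = 2.62e-05), and Lss, lanosterol synthase, had 194, 219 and 221 CPM with IL-1b and 289, 342 and 302 CPM with both (0.56 ± 0.10; adjusted p = 0.00156). Sqle, squalene epoxidase, rose by 0.38 ± 0.05. Fdps and Lss share exon bases with another gene model. The member that fell was Acly, ATP citrate lyase (-0.23 ± 0.06). With IL-22 alone 12 of the 24 rose.

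Catabolic genes fell in part. Of 22 genes of gluconeogenesis, ketogenesis and fatty acid oxidation, 6 fell and 2 rose, with a median of -0.07. Besides Pck1, Ppargc1a, the coactivator PGC-1alpha, had 111, 121 and 116 CPM with IL-1b and 59.7, 52.7 and 41.4 CPM with both (-1.17 ± 0.14; edgeR adjusted p = 3.53e-05), and Ppara, a nuclear receptor for fatty acids, had 35.7, 42.1 and 35.8 CPM with IL-1b and 12.7, 21.4 and 11.2 CPM with both (-1.32 ± 0.26; adjusted p = 0.00188). Of the gluconeogenic enzymes tested only Pck1 fell: Fbp2 was not called (0.05 ± 0.06), and Pck2, the mitochondrial form, rose (0.33 ± 0.09), a call lost without IL-1b replicate 1 or IL-1b+IL-22 replicate 1 (adjusted p = 0.0705 and 0.0767). The peroxisomal enzyme gene Ehhadh fell by 0.44 ± 0.06. The groups did not overlap for Ppargc1a or Ppara.

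Xenobiotic and retinol metabolism genes were mostly on the lower side: 15 of 42 fell and 1 rose, with a median of -0.18. Sult1a1, a sulfotransferase gene, had 53.3, 51.2 and 65.02 CPM with IL-1b and 27.4, 18.8 and 29.6 CPM with both (-1.17 ± 0.15; edgeR adjusted p = 8.28e-05), and the efflux transporter gene Abcc2 had 8.82, 9.03 and 8.81 CPM with IL-1b and 3.63, 4.31 and 2.79 CPM with both (-1.30 ± 0.27). Cyp2b10, a target of the receptor CAR, had 82.9, 89.7 and 70.8 CPM with IL-1b and 8.68, 48.02 and 20.4 CPM with both (-1.65 ± 0.33), with IL-1b+IL-22 replicate 2 far above the other two, and stood at -2.49 without it. Cyp1a1, the classic target of the aryl hydrocarbon receptor, had 2.76, 6.02 and 2.83 CPM with IL-1b and 1.21, 0.784 and 0.429 CPM with both (-2.20 ± 0.49; adjusted p = 0.00446). Some members of the Cyp and Sult families have close copies, and reads of such members may be split.

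Apolipoprotein and lipid absorption genes fell in 7 of 18 cases with 1 higher, and the median was -0.38. The sterol exporter genes Abcg5 and Abcg8, which are divergent neighbours and share exon bases, stood at -0.80 ± 0.18 and -0.84 ± 0.28. Apoa1 had 15.99, 8.65 and 12.1 CPM with IL-1b and 1.82, 3.33 and 3.003 CPM with both (-2.17 ± 0.72; edgeR adjusted p = 0.0401). The calls of Apoa1 and Abcg8 were lost when IL-1b replicate 1 or 3 was left out, or IL-1b+IL-22 replicate 2 or 3, Abcg8 also without IL-1b replicate 2 and Apoa1 without IL-1b+IL-22 replicate 1, and both without unstimulated replicate 1 (adjusted p = 0.0501 to 0.145). The number of lower members was 3, 4 and 3 without IL-1b replicates 1, 2 and 3, and 2 and 3 without IL-1b+IL-22 replicates 2 and 3. The higher member, Npc1l1, the intestinal cholesterol importer, rests on 1 library: it had 0.368, 0.188 and 0.832 CPM with IL-1b and 0.807, 17.4 and 1.93 CPM with both, and without IL-1b+IL-22 replicate 2 its change was 1.47 (adjusted p = 0.358). Its call was also lost without IL-1b replicate 1, 2 or 3, where the value was 3.62, 3.42 and 4.49.

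Goblet cell genes were mostly on the lower side. Of 24 tested, 9 fell and 1 rose, with a median of -0.22. Atoh1, the transcription factor that specifies secretory cells, had 30.3, 33.7 and 35.4 CPM with IL-1b and 18.97, 24.7 and 16.9 CPM with both (-0.71 ± 0.14; edgeR adjusted p = 0.00224). Creb3l1, a secretory pathway transcription factor, had 90.6, 119.8 and 103 CPM with IL-1b and 65.98, 65.9 and 51.3 CPM with both (-0.77 ± 0.12; adjusted p = 0.000345), and the protease gene Capn9 fell by 0.71 ± 0.13. These 3 genes were lower in every library with both cytokines. Muc2, the main gel-forming mucin gene, had 366, 406 and 336 CPM with IL-1b and 379, 417 and 395 CPM with both (0.10 ± 0.08) and did not pass the test (adjusted p = 0.351).

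Glycosylation genes changed in both directions. Fut2, which adds the terminal fucose of the epithelial H antigen (mm10 chr7:45648591-45666394), had 166, 179 and 174 CPM with IL-1b and 360.4, 365 and 368 CPM with both (1.07 ± 0.05; edgeR adjusted p = 1.87e-08), one of the tightest changes in the comparison. Gmds, which makes GDP-fucose, rose by 0.47 ± 0.05, whereas Fut4, another fucosyltransferase gene, had 71.9, 93.9 and 74.2 CPM with IL-1b and 39.5, 44.7 and 37.1 CPM with both (-0.98 ± 0.17). In all, 5 of 13 fucosylation genes rose and 3 fell. Fut9 was among the lower ones at -1.14 ± 0.39, a call lost without IL-1b or IL-1b+IL-22 replicate 2 or 3 (adjusted p = 0.0885 to 0.187) or without any 1 of the unstimulated or IL-22 libraries (0.0523 to 0.057). Of 28 mucin-type glycan transferases 8 rose and 6 fell, with a median of 0.05. The sialyltransferase gene St6gal1 had 32.7, 40.1 and 35.4 CPM with IL-1b and 9.89, 15.9 and 10.1 CPM with both (-1.59 ± 0.18; adjusted p = 3.21e-05), St6galnac4 fell by 0.99 ± 0.14, and B3gnt5 rose by 0.68 ± 0.13. Without IL-1b replicate 3 the number of lower transferases was 3.

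Surface and junction genes were higher in 11 of 22 cases, with 1 lower and a median of 0.24. Muc1, a transmembrane mucin gene, had 5.15, 5.08 and 7.82 CPM with IL-1b and 27.04, 26.1 and 32.8 CPM with both (2.24 ± 0.21; edgeR adjusted p = 6.75e-06). Cldn2, which forms a cation pore in tight junctions, had 26.5, 36.5 and 32.6 CPM with IL-1b and 64.2, 49.6 and 74.01 CPM with both (0.97 ± 0.20; adjusted p = 0.00278). Cldn8, a barrier-forming claudin gene, stood at 0.40 ± 0.10 and lost its call without IL-1b+IL-22 replicate 1 (adjusted p = 0.0535). Of 27 mature colonocyte genes 11 rose and 1 fell, with a median of 0.16, and 7 rose without IL-1b replicate 3. Clca4b, a chloride channel accessory gene of surface cells, had 143, 149.6 and 148 CPM with IL-1b and 489.7, 440.1 and 485 CPM with both (1.68 ± 0.11; adjusted p = 2.70e-07), and Slc51b, a bile acid exporter subunit, rose by 0.49 ± 0.08.

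Ion and water channel genes fell in 8 of 24 cases and rose in 2, though the median was 0.06. The chloride channel gene Ano1 fell by 1.15 and Scnn1g, a subunit of the epithelial sodium channel, had 2.39, 4.51 and 2.16 CPM with IL-1b and 0.202, 0.9801 and 0.215 CPM with both (-2.60 ± 0.55; edgeR adjusted p = 0.00358), with -3.70 without IL-1b+IL-22 replicate 2. Aqp1, a water channel gene, had 5.697, 8.47 and 5.32 CPM with IL-1b and 1.21, 1.57 and 2.79 CPM with both (-1.80 ± 0.47). The groups did not overlap for Scnn1g or Aqp1. Scnn1b stood at -1.61 ± 0.52 and lost its call without IL-1b replicate 1 or 3 or IL-1b+IL-22 replicate 1 or 3 (adjusted p = 0.0709 to 0.12).

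Stem cell and Wnt genes had no common direction, with 5 of 17 higher, 3 lower and a median of -0.16. Sox9, a crypt transcription factor, had 35.1, 40.4 and 29.3 CPM with IL-1b and 21.99, 17.4 and 19.7 CPM with both (-0.82 ± 0.17; edgeR adjusted p = 0.00246), Znrf3, an inhibitor of Wnt receptors, fell by 0.90 ± 0.18, and Ephb3, a crypt positioning receptor, had 33.4, 33.7 and 33.8 CPM with IL-1b and 50.04, 56.6 and 62.00 CPM with both (0.74 ± 0.19). Lgr5, the stem cell marker, was near the limit of counting at 0.919, 1.505 and 1.66 CPM with IL-1b and 0.807, 0.588 and 3.43 CPM with both. Of 32 cell cycle genes 4 rose and 1 fell, shares under the background in both directions. Ccnd1 (cyclin D1) had 112, 124 and 108 CPM with IL-1b and 167, 152 and 216 CPM with both (0.64 ± 0.13; adjusted p = 0.00315), and Mki67 had 131, 182 and 155 CPM with IL-1b and 195, 177 and 187 CPM with both (0.26 ± 0.15; adjusted p = 0.221) and did not pass. The other higher members, Aurka, Birc5 and Ube2c, were no longer called when IL-1b replicate 1 or IL-1b+IL-22 replicate 1 or 3 was left out (adjusted p = 0.0505 to 0.156). The number that rose was 1 without any of those libraries, and 2 without IL-1b replicate 3.

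Markers of rarer epithelial cells had few calls. Of 18 enteroendocrine genes 3 fell and none rose, with a median of -0.15. That share, 16.7%, was near the 13% of all genes that fell. Neurog3, the factor that specifies these cells, had 8.64, 9.59 and 9.98 CPM with IL-1b and 5.85, 4.704 and 5.36 CPM with both (-0.82 ± 0.20; edgeR adjusted p = 0.00745). Scgn and the somatostatin gene Sst stood at -0.60 ± 0.18 and -0.52 ± 0.17. Without IL-1b replicate 1, 2 or 3 or IL-1b+IL-22 replicate 2 just 1 gene of the list was called. Of 4 tuft cell genes tested 2 fell, Hpgds (-0.94 ± 0.24) and Il17rb (-0.98 ± 0.31), and 1 fell without IL-1b replicate 1 or 3 or IL-1b+IL-22 replicate 2 or 3. Of 9 deep crypt secretory and Paneth genes 3 rose and 2 fell. Mmp7, a matrix metalloproteinase gene that processes defensins, had 1.47, 1.88 and 4.16 CPM with IL-1b and 13.7, 6.47 and 10.9 CPM with both (2.02 ± 0.38) and stood at 2.61 without IL-1b replicate 3.

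Wound repair and growth factor genes rose in 14 of 22 cases with 2 lower, and the median was 0.41. Ereg, an EGF receptor ligand gene, had 19.8, 24.1 and 20.1 CPM with IL-1b and 65.4, 60.96 and 39.7 CPM with both (1.38 ± 0.24; edgeR adjusted p = 0.000999), and the related ligand genes Hbegf and Areg rose by 0.80 ± 0.08 and 0.51 ± 0.08. Timp3, a metalloproteinase inhibitor gene, had 13.97, 5.27 and 10.3 CPM with IL-1b and 1.61, 2.16 and 4.51 CPM with both (-1.85 ± 0.43; adjusted p = 0.00634). Ereg, Mmp7 and Timp3 share exon bases with other gene models. Cell death and inflammasome genes, 30 tested, gave 13 that rose and 3 that fell, with a median of 0.18. The necroptosis genes Ripk3, a kinase, and Mlkl, its pore-forming substrate, had 92.99, 94.2 and 94.5 CPM with IL-1b and 182, 182 and 191 CPM with both (0.98 ± 0.07; adjusted p = 6.06e-07), and 69.1, 61.7 and 64.5 CPM with IL-1b and 101, 100.4 and 109 CPM with both (0.67 ± 0.07; adjusted p = 1.46e-05). Tnfrsf1a, the receptor for TNF, rose by 0.59 ± 0.07. For all 3 the groups were apart by several times their spread.

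Markers of other cells that a crypt preparation could carry were examined next. Leukocyte markers summed to 190.9 CPM in IL-1b replicate 1, to 87.1 and 78.3 CPM in the other IL-1b libraries and to 78.9 to 88.8 CPM with both cytokines. Of the 6 tested, Ptprc, Laptm5, Plek and Cytip fell, and without IL-1b replicate 1 only Plek fell. Laptm5 also lost its call without IL-1b+IL-22 replicate 1 or 2, and Cytip without IL-1b replicate 3 or any library with both cytokines. Ptprc (CD45) had 104, 20 and 12 counts with IL-1b and 2, 9 and 6 with both, and its change went from -2.81 ± 0.81 (edgeR adjusted p = 0.0195) to -1.29 (0.151) without that library. Its call was also lost without IL-1b+IL-22 replicate 1 (adjusted p = 0.069) or 3 (0.0515). Plek had 5.51, 8.84 and 9.48 CPM with IL-1b and 1.01, 0.784 and 0.429 CPM with both (-3.37 ± 0.44) and shares exon bases with Cnrip1. Tyrobp, another leukocyte marker, had no count in any of the 6 libraries.

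Stromal and myeloid markers gave a mixed picture. Fibroblast and smooth muscle markers summed to 70.4 to 88.4 CPM with IL-1b and to 35.6 to 43.6 CPM with both cytokines, with Col1a2, Dcn and Lum at 0 counts in all 6 libraries. The difference lay largely in Pdgfrb, a growth factor receptor gene, which had 34.2, 39.9 and 43.1 CPM with IL-1b and 14.9, 12.9 and 12.01 CPM with both (-1.55 ± 0.19; edgeR adjusted p = 4.65e-05). Endothelial markers summed to 12.8 to 18.7 CPM with IL-1b and to 6.87 to 17.2 CPM with both, which overlap, but 2 of the 3 tested fell. Pecam1 (CD31) had 7.35, 4.89 and 8.15 CPM with IL-1b and 1.41, 4.12 and 0.858 CPM with both (-1.65 ± 0.39; adjusted p = 0.00656), with -2.55 without IL-1b+IL-22 replicate 2, and Vwf, the von Willebrand factor gene, had 4.41, 3.57 and 2.66 CPM with IL-1b and 1.82, 1.37 and 0.858 CPM with both (-1.36 ± 0.33; adjusted p = 0.00769). Both kept their calls without any 1 of the 6 libraries, and the groups did not overlap. The 17 macrophage, dendritic and neutrophil markers had the highest sum of these lists, 231.2 to 247.7 CPM with IL-1b and 288.7 to 342.0 CPM with both, and Ly6g alone had 125, 127 and 116 CPM with IL-1b and 152, 144 and 161 CPM with both. Of the 5 tested 4 rose, Cd14, Cd68, Ly6g and Mrc1, while Adgre1, C1qc, Fcgr3, Flt3, Xcr1 and Mpo had no count in any of the 6. Cd14, the lipopolysaccharide co-receptor, had 81.96, 77.3 and 80.99 CPM with IL-1b and 110.2, 93.9 and 109 CPM with both (0.38 ± 0.08; adjusted p = 0.00458). Mrc1 and Ly6g were no longer called when IL-1b replicate 3 was left out, or IL-1b+IL-22 replicate 3, and Mrc1 also without IL-1b replicate 2 or IL-1b+IL-22 replicate 1.

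Stress and immediate-early genes, which respond to handling of cells as well as to cytokines, rose too. Of 15 tested 11 rose and 1 fell, with a median of 0.34, and their summed level was 1342 to 1360 CPM with IL-1b and 1671 to 1807 CPM with both. With IL-22 alone it was 1698 to 1941 CPM, against 1345 to 1487 CPM unstimulated. Egr1 and Atf3, transcription factor genes of this group, rose by 0.67 ± 0.12 and 0.52 ± 0.11. Without IL-1b replicate 3 the number that rose was 7. The part of handling in the other rises was not tested.

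The effect of IL-22 was then set beside its effect in cultures without IL-1b, which uses 6 other libraries. IL-22 alone changed 3144 genes (22.5%). Of the 1860 genes that rose when IL-22 was added to IL-1b, 1257 (67.6%) also rose with IL-22 alone, which is 75.7% of the genes that rose there. Of the 1822 that fell, 1018 (55.9%) also fell alone, or 68.6% of those. Among the 2276 genes called in both comparisons the median absolute log2 fold change was 0.51 with IL-1b and 0.49 without, and 1273 had the larger change with IL-1b. Across all genes tested the log2 fold changes had a Pearson r of 0.796, given as a description, since genes are not independent replicates and both comparisons share library depth and the level of each gene.

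**Figure D4:**
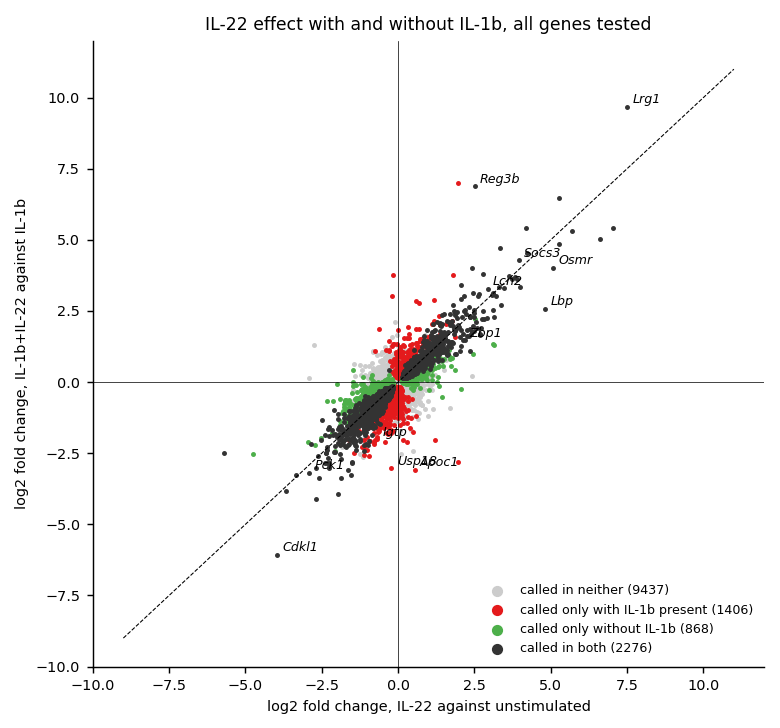
Log2 fold change of each tested gene with IL-22 alone over unstimulated (x axis) and with both cytokines over IL-1b (y axis), coloured by the comparison in which it was called. The dashed line marks equal change. The 2276 genes called in both spread along that line, and Lbp, at 4.81 and 2.58, lies below it. Fitted values of genes with few counts depend on the prior count.

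No gene passed the test of the difference between the 2 effects (edgeR interaction, 0 of 13987, 0%). At an unadjusted p under 0.05 there were 705 genes, with 699 expected by chance, and the lowest adjusted p was 0.124. That gene was Lbp, which had 32.8, 34.8 and 32.1 CPM with IL-22 alone and 1.43, 1.09 and 0.948 CPM without cytokine, so that it rose by 4.81 ± 0.23 without IL-1b and by 2.58 ± 0.17 with it. The levels reached with IL-22 were close, at 32.1 to 34.8 CPM alone and 40.3 to 45.8 CPM with both, while IL-1b alone had 5.15, 9.97 and 6.65 CPM. Without IL-1b replicate 1 Lbp passed (interaction -2.43, adjusted p = 0.0189), and the DESeq2 Wald test called it with 3 others, all with a lower value under IL-1b. Those were Clca4b, Adh6a and Sgk1, with interactions of -0.70, -1.33 and -0.79 by DESeq2. Genes called with IL-1b but not without it, 602 higher and 804 lower, are therefore not shown to respond differently.

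A few genes show how the 2 settings compared. Socs3 rose by 3.95 ± 0.16 alone and 4.28 ± 0.16 with IL-1b, Fut2 by 1.00 ± 0.05 and 1.07 ± 0.05, and Pck1 changed by -2.92 ± 0.21 and -3.19 ± 0.22. The interactions of these 3 were 0.34 ± 0.26, 0.08 ± 0.08 and -0.27 ± 0.33, with edgeR adjusted p of 0.975, 0.979 and 0.988. Nos2 rose by 1.90 ± 0.22 alone and 0.97 ± 0.18 with IL-1b (interaction adjusted p = 0.924). Its levels were 41.9, 22.2 and 25.8 CPM without cytokine, 83.2, 107 and 146 CPM with IL-22, 108, 121 and 131 CPM with IL-1b and 208, 249.5 and 247 CPM with both. For Nos2 the order of the group means was unstimulated, IL-22, IL-1b and both, with IL-22 and IL-1b overlapping. Of 37 interferon-stimulated genes 5 rose and none fell with IL-22 alone, with a median of 0.04, against 2 higher, 10 lower and a median of -0.41 with IL-1b, or 2 higher, 4 lower and -0.21 without IL-1b replicate 1. No gene of the list passed the interaction test.

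The repeat without IL-1b replicate 1, the library with the most leukocyte transcripts, called 2827 genes, 1409 higher and 1418 lower. The IL-1b libraries it kept still held T cell and innate lymphoid markers, at 9.41 and 10.5 CPM, so it was not free of leukocyte RNA. Of 13984 genes tested both ways, 2731 were called with and without it, 951 were called with it alone and 77 without it alone, and none of those called both ways changed direction. This repeat has 1 library fewer in a group of 3, and leaving out IL-1b replicate 2 or 3 gave 2974 and 2567 calls. Most lists kept their counts: antimicrobial genes went from 11 to 10 higher, ER folding genes from 22 to 21, cholesterol synthesis genes from 16 to 15 and goblet cell genes from 9 to 8 lower. Those that moved by more than 1.5 times, among counts of 4 or more, were interferon-stimulated genes (10 to 4 lower), lipid absorption genes (7 to 3 lower), proteasome genes (9 to 5 higher), cell cycle genes (4 to 1 higher) and leukocyte markers (4 to 1 lower).

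**Figure D5:**
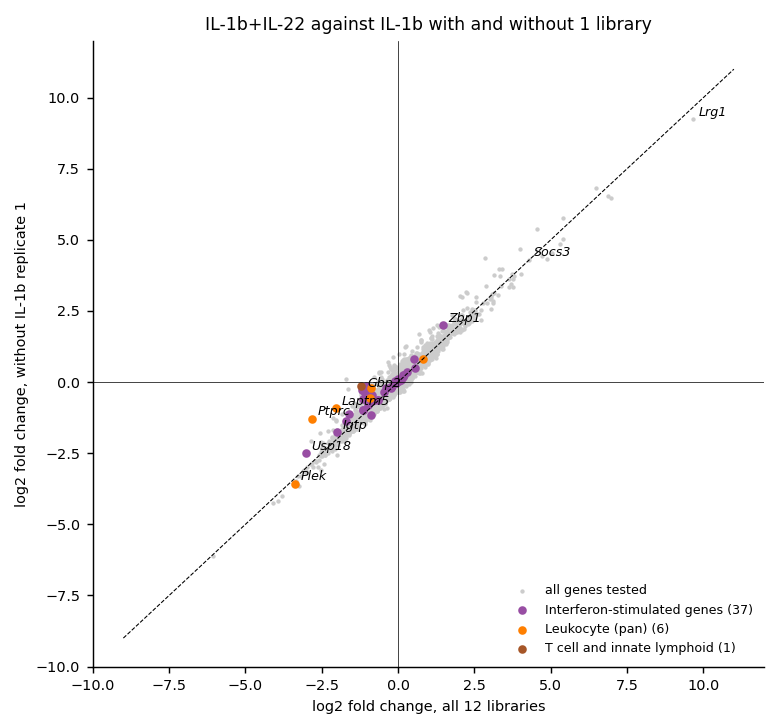
Log2 fold change of both cytokines over IL-1b with all libraries (x axis) and without IL-1b replicate 1 (y axis), with interferon-stimulated genes, leukocyte markers and the tested T cell marker in colour. The dashed line marks equal values. Ptprc moves from -2.81 to -1.29 and Usp18 from -3.03 to -2.50, while Plek goes from -3.37 to -3.58.

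Fold changes followed the level of a gene. Among 13252 tested genes with a known exon length, those with fewer than 0.02 counts per exon base, 3188 genes, had a median log2 fold change of -0.21, against -0.03 for the 5504 from 0.02 to 0.1. It was 0.07 for the 4117 genes from 0.1 to 0.4 and 0.13 for the 443 genes at 0.4 or more. Removing that trend left 3334 calls (1693 higher, 1641 lower), and lower members rose from 15 to 24 in the xenobiotic list and from 6 to 10 in the gluconeogenesis and fatty acid oxidation list. Proteasome members that rose went from 9 to 4. Counts of the most abundant genes level off in these libraries, so their fold changes may be compressed. Library totals averaged 5462352 counts with IL-1b and 4989629 with both. Epcam had 1465, 1429 and 1481 counts with IL-1b and 1413, 1434 and 1373 with both, yet a log2 fold change of 0.13. The part of this in small rises of abundant genes, and in the summed level of epithelial markers, was not tested.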

How the data were processed

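The authors deposited 1 table of raw read counts per gene symbol for 12 libraries. The genome build was mm10 per the submitters' processing notes. The library kit keeps strand per the labels' protocols, but the aligner, counter, annotation and counting strand are not given in the labels or the file header. Groups were taken from the sample labels. Counts were analysed in R 4.3.3 with edgeR 4.0.16: filterByExpr kept 13987 of 35869 symbols, TMM scaled the libraries, and a quasi-likelihood model with 4 group means over all 12 libraries (8 residual degrees of freedom) gave the contrast of both cytokines with IL-1b, that of IL-22 with unstimulated, and their difference. P-values were adjusted by Benjamini-Hochberg over all 13987 genes, with a threshold of 0.05. For genes with 3 or fewer summed counts in a group, the ratio of summed counts has an exact 95% interval, which covers counting error only. Libraries of 1 group differed by more than counting noise (chi-square per degree of freedom 1.92 to 3.16), so none was treated as a duplicate deposit; repeat preparations of 1 sample could differ as much. Coordinates and exon lengths came from GENCODE M21, which matched 26704 symbols directly and 506 through synonyms, and promoters from RefSeq (GRCm38.p6), which held one for 104 of the 143 named genes. Of the 143, 45 share exon bases with another gene model.

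The named genes were the 12 largest changes in each direction among called genes with a mean of 1 CPM or more, no overlap between groups and no clone-type name. To these were added up to 4 called members of each gene list by size of change (2 by level where none was called), a fixed set of cytokine response genes, and the members of other cell type lists with the highest CPM. The comparison, the members and the gene lists were chosen with earlier results of these data known. Lgr5 and other fixed genes are given whether or not they passed. Tnip1 and Ikbke were not named by this rule and were chosen after their values were seen, as the lower members of their list. Xbp1, Hyou1, Hspa5, C3, S100a9, Cxcl2, Ccl28, Cish, Fgl1, Acly, Ano1, Irf8, Dhx58, Egr1, Atf3, Hbegf, Areg, Cd14, Pecam1, Vwf, Ly6g, Pck2, Fbp2, Rac1, Gpx2, Sqle, Pdgfrb, Tab1, Ikbkg, Ptpn21, Adh6a, Sgk1 and the members listed with a count fall outside that rule and were chosen after their values were seen. Alternatives were another scaling, the DESeq2 1.42.0 Wald test, other filters, a replicate block, removal of the trend with count per exon base (lowess, span 0.3), the 6 libraries alone and leaving out each library. Results of a few genes are not reported here. The scripts were tested on simulated data.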

Additional observations from a re-analysis of the deposited data

How the results depend on the processing

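The number of genes called with IL-22 added to IL-1b stayed within 1.5 times of 3682 under all 20 alternatives, between 2567 (without IL-1b replicate 3) and 3985 (no filter beyond 1 count). It was 3018 by the DESeq2 Wald test, 3671 with DESeq2 size factors, 3683 with 1 CPM in 6 libraries as the filter and 3912 with only the 6 libraries compared. The interaction gave 0 genes in all but 3 settings: the DESeq2 Wald test called 4 (4 lower), no filter called 50 (25 higher, 25 lower), and leaving out 1 library gave 0 to 1. Replicate numbers did not pair the libraries: same-numbered libraries of the compared groups had correlations of -0.156 to 0.073 and 2 of the 6 correlated best with their own number. With the replicate block 3345 genes were called, 1699 higher and 1646 lower. Of 2850 values of named genes under the alternatives, 2704 kept direction and call, 145 (27 genes) lost the call, 1 gained it (Mki67, no filter, adjusted p = 0.0373) and none reversed. Of 1636 counts of list members 1470 stayed within 1.5 times; the cause was not tested. Total-count scaling shifts the median by about the size of the medians of the glycan transferase and ion channel lists, so their sign is not settled. Depth limits genes near 3 counts, which correspond to 0.499 to 0.665 CPM in these libraries.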

Other observations

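Ptpn21, a cytoplasmic tyrosine phosphatase gene, was the single gene called in opposite directions by the 2 comparisons. It rose when IL-22 was added to IL-1b (0.44 ± 0.10, edgeR adjusted p = 0.00511) and fell with IL-22 alone (-0.30 ± 0.10, adjusted p = 0.0387). Its levels were 39.02, 33.1 and 34.3 CPM unstimulated, 29.5, 27.02 and 29.6 CPM with IL-22, 27.2, 26.5 and 24.4 CPM with IL-1b and 32.7, 35.1 and 37.97 CPM with both. The difference between the 2 effects did not pass the edgeR interaction test (adjusted p = 0.746).

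Adh6a, an alcohol dehydrogenase gene, and Sgk1, a kinase gene that promotes epithelial sodium uptake, were called for the interaction by the DESeq2 Wald test (adjusted p = 0.0326 and 0.0494). Adh6a had 39.9, 34.4 and 37.7 CPM unstimulated, 57.6, 103 and 67.7 CPM with IL-22, 46.9, 52.1 and 50.6 CPM with IL-1b and 53.3, 31.8 and 37.1 CPM with both. Sgk1 had 131, 135 and 148 CPM unstimulated, 112, 164 and 127 CPM with IL-22, 133, 165 and 156 CPM with IL-1b and 91.2, 76.3 and 89.03 CPM with both. By edgeR the interaction adjusted p was 0.924 for Adh6a and 0.924 for Sgk1.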
